A study of Mus musculus with 5 samples.

Results

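The cadherins described here are 10 genes taken by name, Cdh1, Cdh2, Cdh3, Cdh4, Cdh5, Cdh6, Cdh10, Cdh11, Cdh13 and Cdh19, out of 27729 genes measured by RNA sequencing while mouse fibroblasts were kept in a medium meant to turn them into neurons. All 10 symbols matched 1 gene each, and 8 of the 10 reached 10 expected counts in at least 1 library, the level needed to be included in numbers of changed genes. Cdh1 and Cdh5 did not reach that level.

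Mouse embryonic fibroblasts (MEFs) of the outbred strain ICR were sequenced on day 0, in serum medium, and again after 2, 5, 10 and 14 days of induction medium, with 1 library per time point. No genotype or transgene differs between the libraries, and time in the medium is the only labelled difference. Serum was removed when the induction medium was given, so the 2 cannot be told apart in changes against day 0. The medium is called 6C in the labels and 5C in the paper, and holds N2, bFGF, LIF, vitamin C and 2-mercaptoethanol in DMEM/F12. The last library is labelled day 14, but the treatment text beside the labels names day 15. MEFs are a mixed culture from the bodies of mid-gestation embryos without head and internal organs, and the study enriched them for cells that attach strongly, so the cells present at day 0 are not a single clone or type. With 1 library per time point no difference has a replicate check and no test was possible. Here "rose" and "fell" mean only that a value changed by over 2-fold between 2 libraries.

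In mm10 coordinates (GRCm38, GENCODE M21), 5 of the 10 protein-coding genes lie on chromosome 8, namely Cdh11 at chr8:102632095-102785642, Cdh5 at chr8:104101625-104144511, Cdh3 at chr8:106510891-106557297, Cdh1 at chr8:106603351-106670246 and Cdh13 at chr8:118283733-119324921. Cdh6 (chr15:13028701-13173675) and Cdh10 (chr15:18818947-19014236) lie on chromosome 15. Cdh2 lies at chr18:16588877-16809246, Cdh4 at chr2:179442431-179899373 and Cdh19 at chr1:110888326-110977584. No annotated gene shares exonic bases with any of the 10.

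Cadherins are single-pass membrane proteins that bind the same or a related cadherin on the neighbouring cell when calcium is present, and whose cytoplasmic tails hold catenins that connect them to actin. Type I members include the epithelial cadherin (Cdh1), the neural cadherin (Cdh2), the placental cadherin (Cdh3) and the retinal cadherin (Cdh4). Type II members include Cdh6, Cdh10, Cdh11, the osteoblast cadherin of mesenchymal cells, and Cdh19, which is known from Schwann cell precursors and glia of peripheral nerves. The endothelial Cdh5 is an atypical member, and Cdh13 has no cytoplasmic tail and is held in the membrane by a lipid anchor. Fibroblasts are known for Cdh2 and Cdh11, and a shift between Cdh1 and Cdh2 is the classical sign of transitions between epithelial and mesenchymal cells.

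Cdh6 and Cdh10 were the 2 members listed in the RefSeq promoter table (GRCm38.p6). They are shown because they were the only 2 with an entry there, and both are type II cadherins of chromosome 15. The 250 bases before each start, read 5′ to 3′ on the gene's own strand, are chr15:13173676-13173925 on the minus strand for Cdh6 and chr15:18820079-18820328 on the plus strand for Cdh10. The RefSeq start of Cdh10 is an internal one, so its stretch lies inside the GENCODE gene span given above and downstream of the outermost start. Capitals mark the letters ACAAAG or CTTTGT, the core bound by Sox factors, on either strand.
Cdh6: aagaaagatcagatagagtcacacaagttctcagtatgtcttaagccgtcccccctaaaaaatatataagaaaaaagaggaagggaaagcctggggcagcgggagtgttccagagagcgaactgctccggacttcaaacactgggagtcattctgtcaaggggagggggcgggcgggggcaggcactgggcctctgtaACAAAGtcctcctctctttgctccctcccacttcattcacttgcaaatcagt
Cdh10: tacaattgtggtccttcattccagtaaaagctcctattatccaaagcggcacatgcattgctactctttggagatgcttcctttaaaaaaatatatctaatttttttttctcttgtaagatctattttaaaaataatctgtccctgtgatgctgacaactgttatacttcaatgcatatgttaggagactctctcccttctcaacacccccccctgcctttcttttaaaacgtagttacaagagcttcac
The Cdh6 stretch held 1 match, whose first base lies 52 bases before the start, and the Cdh10 stretch held 0. Of 32851 promoters 16.5% held these letters in the same 250 bases. The letters CAGGTG or CACCTG, an E-box that Snail and Zeb repressors bind, were in neither stretch and were present in 17.2% of all promoters. The motifs were chosen after the values and sequences had been seen, and a match is a description of letters, not a bound site.

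The expected counts, RSEM's estimates of the reads of each gene, summed to between 2253748 (day 2) and 3890334 (day 0). A level of 3 counts, the limit that a count of 0 allows, corresponds to between 0.771 and 1.33 counts per 1000000. The day 2 library stands apart, since the single gene Gm42418 held 4.79% of its counts and 0.0484 to 0.109% of the others. The labelled cell type was checked against 8 fibroblast markers, and all 8 had 10 or more counts in every library, with summed normalized counts of 20404 to 62024. Counts were divided by effective library sizes to give normalized counts, and changes are log2 ratios with a pseudocount of 1. Intervals are exact 95% intervals of the counts, which cover counting error only, as the reads carry no molecular identifiers. In RNA from whole cultures, fewer cells of a type and less RNA per cell cannot be told apart.

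The summed cadherin RNA was lowest on day 2 and highest on day 10. The 10 members together stood at 120, 40.1, 187, 704 and 436 TPM in the libraries of days 0, 2, 5, 10 and 14 (TPM are transcripts per 1000000, a level per gene length). Of all expected counts the members held 0.0375%, 0.0148%, 0.0439%, 0.127% and 0.0889%. Both measures also moved for genes as a whole. The median log2 TPM change of all tested genes against day 0 was −0.20, 0.61, 1.09 and 0.78 on days 2, 5, 10 and 14. In normalized counts the summed members were lower on day 5 than on day 0, while day 2 stayed lowest and day 10 highest. The make-up moved as well as the amount. On day 0 Cdh2 made up 50.4% and Cdh11 34.7% of the summed TPM, while Cdh19 made up 0.301%. On day 14 Cdh19 made up 43.8%, Cdh11 25.5% and Cdh2 22.8%.

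**Figure D1:**
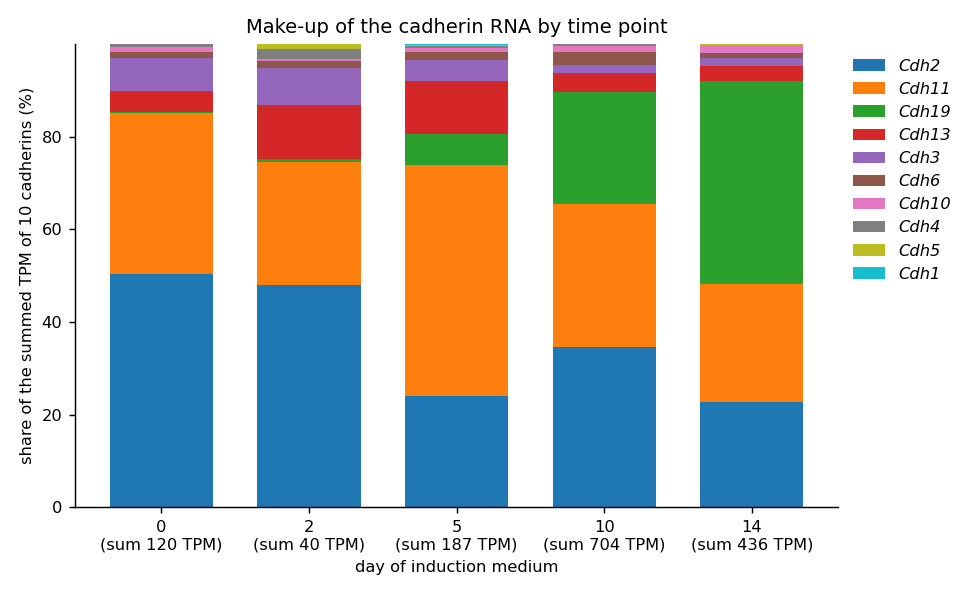
Share of each of the 10 cadherins in their summed TPM (vertical axis, percent) at each day of induction medium (horizontal axis, 1 library per bar, with the summed TPM below the day). Cdh2 and Cdh11 fill most of the bars of days 0, 2, 5 and 10. The share of Cdh19 is 0.301% in the first bar, 24.1% in the fourth and 43.8% in the last.

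More members were lower than higher on day 2, and more were higher than lower on day 10. On day 2 against day 0, 5 of the 8 tested members were over 2-fold lower (Cdh2, Cdh3, Cdh6, Cdh10 and Cdh11) and 0 were higher, beside 13.1% of all 13346 tested genes lower and 15.2% higher. Cdh6 and Cdh10 are among the 5 on 3 counts and 1 count, and their intervals include no change. On day 5, 2 members were higher (Cdh13 and Cdh19, beside 20.2% of all genes) and 1 was lower (Cdh2, beside 13.6%). On day 10, 4 members were higher (Cdh6, Cdh10, Cdh11 and Cdh19) and 0 were lower, beside 28.7% and 22.3% of all genes. On day 14, 2 members were higher (Cdh10 and Cdh19) and 0 were lower, beside 24.5% and 19.9%. Cdh10 and Cdh19 reached the count filter only through libraries in which they were high, and with so few members these shares are a description, and those of days 5 and 14 lie near the shares of all genes. The median log2 change of the 8 was −1.06, 0.03, 1.03 and 0.39 in the 4 later libraries in turn, beside −0.03, 0.05, 0.14 and 0.07 over all tested genes.

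Taken from one library to the next, the rises lay between days 2 and 10. From day 2 to day 5 Cdh6, Cdh10, Cdh11, Cdh13 and Cdh19 rose (5 of 8, beside 19% of all genes) and Cdh4 fell (1 of 8, beside 12.5%). From day 5 to day 10 Cdh2, Cdh4, Cdh6, Cdh10 and Cdh19 rose (5 of 8, beside 12.8%) and 0 fell (beside 9.5%). From day 10 to day 14 Cdh2, Cdh4 and Cdh6 fell (3 of 8, beside 8.33%) and 0 rose (beside 4.73%). The steps share the library between them, so that a high day 10 library enters both the rise before it and the fall after it. The whole interval lay beyond 2-fold for 2, 4 and 1 of the members in these 3 steps. For Cdh4, Cdh6 and Cdh10 the interval from day 2 to day 5 included no change. The same held for Cdh4 from day 5 to day 10.

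**Figure D2:**
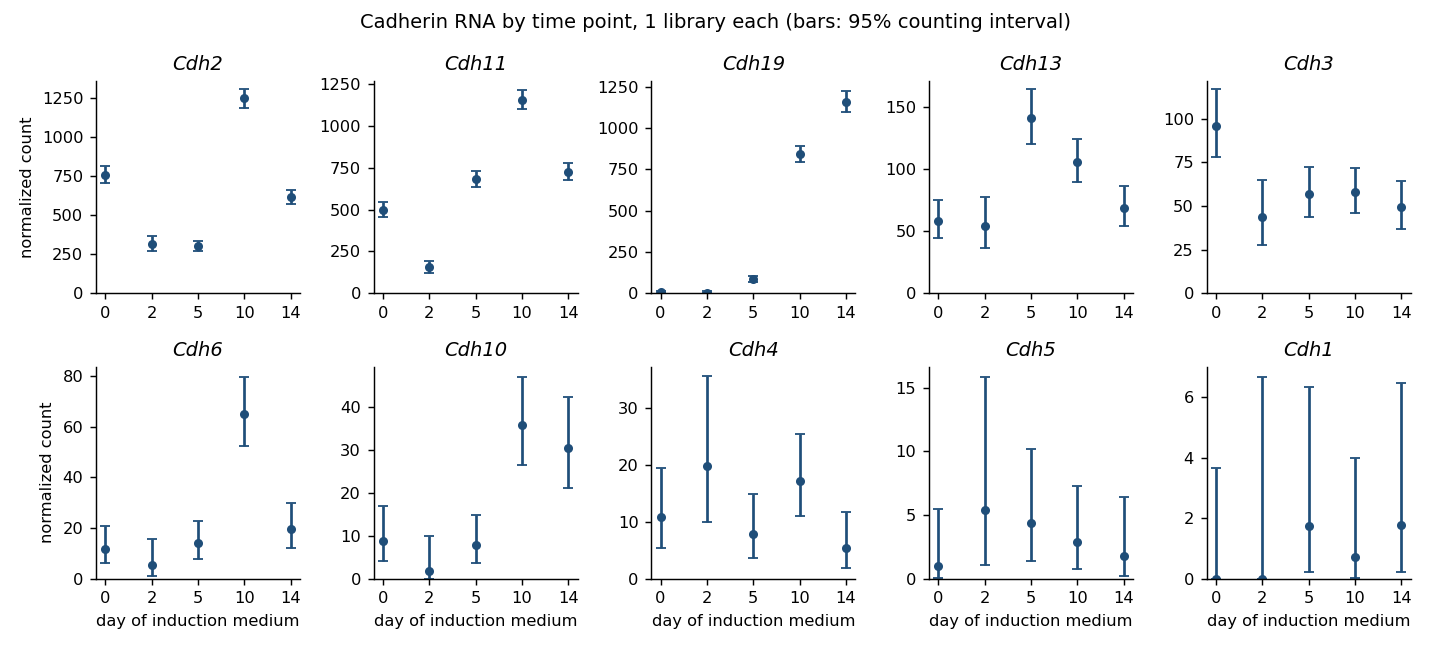
Normalized count (vertical axis, linear and scaled separately for each gene) of the 10 cadherins by day of induction medium (horizontal axis). Points are single libraries and bars are 95% counting intervals. Cdh2 has its lowest normalized counts on days 2 and 5 and its high of 1245 on day 10, Cdh11 has its low of 154 on day 2, and Cdh19 runs from 3.96 on day 0 to 1157 on day 14.

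Cdh2 and Cdh11, the cadherins of mesenchymal cells, were the main members at the start, and in normalized counts Cdh11 returned to its day 0 level earlier than Cdh2. Cdh2 had normalized counts of 755, 317, 303, 1245 and 612 from the first library to the last. In normalized counts days 2 and 5 were alike, with a log2 change of −0.06 (−0.33 to 0.21) between them. Per length the same step was 19.2 to 45.0 TPM, while RSEM's length for Cdh2 went from 4806 to 3875 bases and the median TPM change of all genes went from −0.20 to 0.61. Less the median of all genes, the TPM change against day 0 was −1.40 on day 2 and −1.02 on day 5. A rise of 2.04 (1.87 to 2.21) to day 10 followed, and Cdh2 fell by 1.02 (0.90 to 1.15) from there to day 14.

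Cdh11 had normalized counts of 497, 154, 681, 1157 and 726 from day 0 to day 14. Its day 2 value was −1.69 (−2.04 to −1.36) against day 0 on the log2 scale, the only value of Cdh11 below the start. Its rise by day 5 was 2.14 (1.82 to 2.49) over the day 2 library. As TPM less the median of all genes it was −1.66 on day 2 and 0.54 on day 5. On day 10 it was 1.22 (1.07 to 1.36) above day 0, and on day 14 it was at 0.54 (0.38 to 0.71), within 2-fold of the start. Between days 10 and 14 it changed by −0.67 (−0.80 to −0.55).

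Cdh13, the cadherin without a tail, followed another course. Its normalized counts were 58.4, 54.3, 141, 106 and 68.8. Day 2 was close to day 0, at −0.10 (−0.79 to 0.55), where Cdh2, Cdh3 and Cdh11 were all over 2-fold lower. Its highest library was day 5, at 1.26 (0.83 to 1.73) against day 0, and the later changes were 0.85 (0.41 to 1.32) and 0.23 (−0.27 to 0.75). The mean transcript length that RSEM gave Cdh13 went from 3785 bases on days 0 and 5 to 2810 on day 10 and 3306 on day 14. Its TPM, which are divided by that length, were 5.43, 4.69, 21.4, 29.8 and 13.4, with the highest value on day 10 and not on day 5. The summed normalized count of 7 macrophage markers was 197, 1621, 3305, 1768 and 1254. Lyz2 alone gave 2738 of the day 5 sum, and Cd68 (314) and Fcgr1 (14.9) were also highest on day 5. Adgre1, Ptprc and Cd14 were highest on day 10, and Csf1r was highest on day 2 (116, with 112 on day 5). The part of macrophages in the Cdh13 values was not tested.

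Cdh19 was the member that changed most. Its expected counts were 4, 2, 97, 1178 and 1295 over the 5 libraries. Scaled to library size these are 3.96, 3.62, 84.9, 841 and 1157, so the first 2 libraries lay near the limit of 3 counts and the last 3 far above it. Against day 0 its log2 changes in the last 3 libraries were 4.11 (3.02 to 6.33), 7.41 (6.37 to 9.61) and 7.87 (6.83 to 10.07). In the last step, in which Cdh2, Cdh4 and Cdh6 fell, Cdh19 was at 0.46 (0.35 to 0.58).

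Markers of Schwann cells and neural crest moved over the same days as Cdh19. The summed normalized count of 9 such genes was 176, 265, 1323, 8082 and 10419 from the first library to the last. All 9 were over 2-fold above day 0 on days 10 and 14, and none of them was at 0 in any library. Sox10, a defining transcription factor of that lineage, had 7 expected counts at the start and 2230 at the end. The 9 pan-neuronal markers summed to 670, 358, 241, 258 and 376, and did not move together. Of the 4 tested, 2 were over 2-fold higher and 2 lower on day 14. Tubb3, the tubulin of young neurons, went from 22.1 to 161 normalized counts and Snap25 from 0 to 6.27, while Stmn2 (448 to 163) and Map2 (196 to 45.6) carried the lower sum, and Rbfox3 was at 0 in all libraries. The part of these cell types in the Cdh19 values was not tested.

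Cdh6 and Cdh10, whose sequences before the RefSeq start are given above, are type II cadherins of the developing nervous system and were far less abundant. Cdh6 had 12, 3, 16, 91 and 22 expected counts, so that a single library, day 10, stood out, at 2.36 (1.58 to 3.46) against day 0. It fell by 1.67 (1.04 to 2.47) to day 14. Cdh10 had 9, 1, 8.98, 50.3 and 34.1 expected counts and was high in both late libraries. Its log2 changes there were 1.90 (0.96 to 3.21) and 1.67 (0.68 to 3.02), and from day 10 to day 14 it was at −0.23 (−0.91 to 0.42). Cdh6 and Cdh10 therefore parted in the last step, in which the interval of Cdh6 lay wholly beyond 2-fold and that of Cdh10 included no change.

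**Figure D3:**
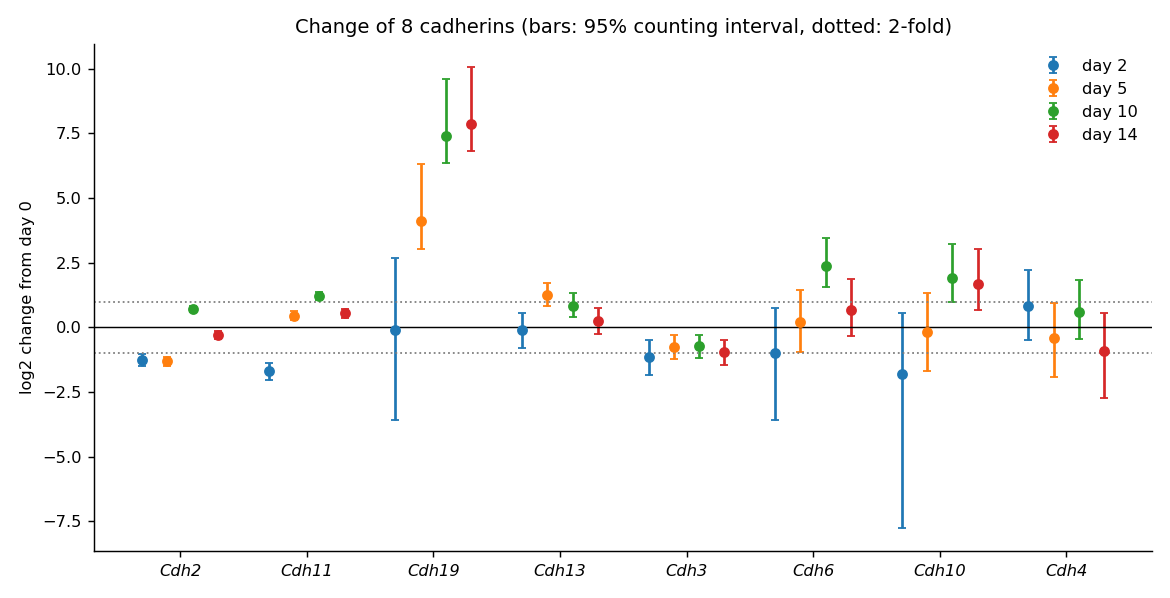
Log2 change against day 0 (vertical axis) of the 8 tested cadherins on days 2, 5, 10 and 14 (colours). Bars are 95% counting intervals and dotted lines mark 2-fold. Cdh19 reaches 4.11, 7.41 and 7.87 on days 5, 10 and 14, and the wide bars of Cdh6, Cdh10 and Cdh19 on day 2 rest on 3, 1 and 2 counts.

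Of the epithelial members, Cdh3 was highest on day 0 in normalized counts and Cdh1 was not measurable. Cdh3 had normalized counts of 96.0 on day 0 and 43.4, 56.9, 57.8 and 49.2 afterwards, so day 0 was its highest library and the 4 later ones lay close together. Its log2 changes were −1.13 (−1.85 to −0.49), −0.74 (−1.23 to −0.29), −0.72 (−1.17 to −0.29) and −0.95 (−1.47 to −0.47). Only the first exceeded 2-fold. Its TPM were 8.50, 3.20, 8.25, 11.5 and 7.99, with the highest value on day 10. Less the median of all genes, the TPM change on day 10 was −0.70. Cdh1 had 0, 0, 2, 1 and 2 expected counts, all under the limit of 3 counts, so no fold is given, and a change of Cdh1 was not detectable at this depth.

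Other epithelial genes were also low. Of 11 epithelial markers Ocln and Grhl2 were at 0 in all libraries, and the summed normalized count was 51.5, 324, 86.6, 20.7 and 17.0, with the day 2 value mostly from Krt18, a keratin with 162 counts in that library. Epcam went against the late fall of this sum, with 0, 1, 4, 5 and 8 expected counts. It was 2.41-fold higher on day 14 when the 0 of day 0 is set at 3 counts, a ratio without the counting error of the 8. With fewer than 10 counts in every library it was not tested. Of 8 transcription factors known to repress Cdh1, 3 were over 2-fold above day 0 and 1 below on day 14, beside 24.5% and 19.9% of all genes. Zeb2 was at 2.31 (2.09 to 2.56), Tcf4 at 1.94 (1.71 to 2.19) and Twist2 at −2.71 (−3.21 to −2.27). Whether these factors bear on Cdh1 was not tested.

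Cdh5 and Cdh4 were near the limit of the measurement. Cdh5, the cadherin of endothelial junctions, had 1, 3, 5, 4 and 2 expected counts, and the interval of every change against day 0 included 0. The sum of 9 endothelial markers was 280, 84.3, 41.8, 25.9 and 12.6 normalized counts, of which Kdr, a VEGF receptor, gave 236 on day 0, while Cldn5 was at 0 in all libraries. Cdh4 had 11, 11, 9, 24 and 6 expected counts. All 4 of its intervals against day 0 included 0, and its change of −1.51 (−3.26 to −0.35) in the last step was one from 24 counts to 6.

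The order of the levels per length changed between days. On day 0 it was Cdh2 (60.2 TPM), Cdh11 (41.5), Cdh3 (8.50) and Cdh13 (5.43), with the other 6 members at 1.59 or less. The counting intervals of Cdh3 and Cdh13 overlapped there. On day 2 Cdh2 (19.2 TPM) and Cdh11 (10.7) led again. On day 5 Cdh11 (93.0 TPM) stood above Cdh2 (45.0), Cdh13 (21.4) and Cdh19 (12.5), whose interval overlapped with that of Cdh3 (8.25). On day 10 Cdh2 (244 TPM), Cdh11 (217) and Cdh19 (170) were separated from each other and from Cdh13 (29.8) and Cdh6 (19.6). On day 14 Cdh19 (191 TPM) came first, and Cdh11 (111) and Cdh2 (99.2) did not differ beyond their counting intervals. Cdh4, Cdh5 and Cdh1 held the bottom of the order on days 5, 10 and 14, none above 2.27 TPM, with overlapping intervals between Cdh4 and Cdh5 and between Cdh5 and Cdh1. Cdh4 was separated from the member above it on days 10 and 14 but not on day 5.

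The scale used changes some of these values, because long genes and short genes moved differently. On day 10 the median log2 change ran from −1.47 in the shortest of 10 equal groups of genes by RSEM length to 1.04 in the longest, and the 10 members all lay in the 5 longer groups. On the TPM scale the median of all genes on day 10 was higher by 0.95 than with normalized counts, so TPM changes are given less that median. On day 10 Cdh11 was at 1.22 as normalized counts, 1.27 as TPM less the median and 0.43 against genes of like length. Cdh2 was at 0.72, 0.91 and −0.07 on these scales on day 10, and at −0.30, −0.08 and −0.76 on day 14, with 0.71 on the plain TPM scale. Its direction on either day is therefore not the same on all scales. Cdh3 was at −0.72, −0.70 and −1.35 on day 10, with 0.40 on the plain TPM scale. Cdh19, Cdh6 and Cdh10 were over 2-fold above day 0 on day 10 on all of these scales, at 5.88, 1.89 and 1.07 as TPM less the median. The median of the 8 members on day 10 was 1.03 as normalized counts, 1.12 as TPM less the median and 0.41 against genes of like length. On day 14 it was 0.39, 0.38 and 0.02.

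**Figure D4:**
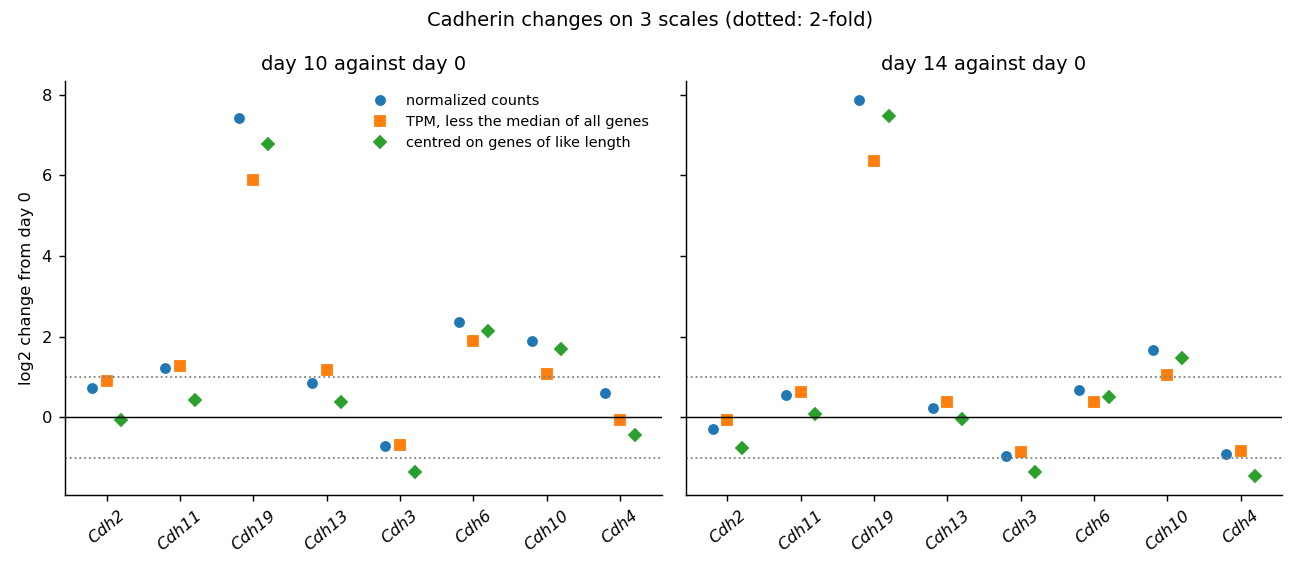
Log2 change against day 0 (vertical axis) of the 8 tested cadherins on day 10 (left) and day 14 (right) on 3 scales: normalized counts, TPM less the median of all genes, and normalized counts centred on genes of like length. Dotted lines mark 2-fold. Cdh19 lies far above the others on each scale, and Cdh2 on day 10 passes from 0.91 to −0.07 with the scale.

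The catenins, which hold the cadherin tails, showed smaller changes than Cdh19. Of 8 catenins 7 were tested. On day 10, 2 were over 2-fold higher and 2 lower, and on day 14, 1 was higher and 2 were lower, with medians of 0.91 and 0.36. These counts lie near the shares of all genes, 28.7% higher and 22.3% lower on day 10 and 24.5% and 19.9% on day 14, which also stand beside the lists that follow. Against genes of like length 0 were higher and 2 lower on both days. Ctnnb1, beta-catenin, was at 0.91 (0.82 to 1.00) and then 0.36 (0.26 to 0.46) on these days. Ctnna1, the alpha-catenin of most tissues, was at 0.95 (0.84 to 1.06) and 0.80 (0.69 to 0.92). Ctnnd1, the p120 catenin that keeps cadherins at the membrane, was at 1.16 (1.01 to 1.32) and 0.53 (0.36 to 0.70), and its relative Arvcf was at 1.06 (0.66 to 1.47) and 1.34 (0.95 to 1.77).

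Jup, plakoglobin, which serves both adherens junctions and desmosomes, was among the catenins that were lower. It was at −1.49 (−1.74 to −1.26) and −1.42 (−1.68 to −1.17). Ctnnd2, the neural delta-catenin, had 66, 6, 8, 9 and 0 expected counts. With its 0 set at 3 counts it was 24.4-fold lower on day 14, a ratio without the counting error of the 66. Ctnna2 was at 0.48 (−0.70 to 1.87) and 0.24 (−1.10 to 1.69), and Ctnna3 had 1 count or none in every library.

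Among the nectins, afadin and actin linkers more were lower than higher, where over all genes more were higher, and genes of the desmosome were scarce. Of 10 tested nectins, afadin and actin linkers, 2 were over 2-fold higher and 5 lower on day 10, and 1 was higher and 7 were lower on day 14, with medians of −1.06 and −1.40, beside 22.3% and 19.9% of all genes lower. Actn1, the actin crosslinker alpha-actinin 1, was at −3.70 (−3.89 to −3.52) on day 14, Nectin2 at −1.84 (−2.13 to −1.57) and Zyx, zyxin, at −1.77 (−1.88 to −1.67). The 7 lower genes of day 14 include Nectin1, Nectin2 and Nectin3. Vcl and Tjp1 were the genes over 2-fold higher on day 10, and Tjp1 the one on day 14. On days 0, 10 and 14 Vcl had normalized counts of 404, 1052 and 702, and Tjp1 of 106, 481 and 287. Of 11 desmosomal genes 2 were tested, and both were lower on days 10 and 14. These were Pkp2 (plakophilin 2), with 62 counts on day 0 and 11 on day 14, and Dsp (desmoplakin), with 42 and 4, both named because they were the only ones measured.

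In the other branches of the cadherin superfamily, as over all genes (28.7% and 22.3%), more were higher than lower on day 10. Of 10 tested non-clustered protocadherins, 6 were over 2-fold higher and 0 lower on day 10, and 4 were higher and 1 was lower on day 14. Against genes of like length this was 4 higher and 2 lower on day 10, and 4 and 4 on day 14. Pcdh1 was at 5.52 (5.02 to 6.19) on day 14, Pcdh17 at 4.34 (3.25 to 6.55) and Pcdh20 at 3.70 (3.18 to 4.37). Of 9 tested genes of the Fat, Dachsous, Celsr and calsyntenin group, which act in planar polarity and at synapses, 7 were higher and 0 lower on both days. Against genes of like length 4 were higher and 0 lower on day 10, and 5 and 1 on day 14, and as TPM less the median 5 and 3 were higher. Fat3, Celsr1, Celsr2, Celsr3 and Clstn2 reached the count filter only through later libraries in which they were high. The same holds for Pcdh8, Pcdh9, Pcdh11x and Pcdh17 among the protocadherins. The filter thus favours higher genes in both lists, and their counts of changed genes are a description only. Celsr1 had 1 expected count at the start, 250 on day 10 and 154 at the end, at 6.12 (4.62 to 12.43) on day 14. Celsr2 was at 3.31 (2.33 to 5.01) and Dchs1, the ligand of Fat4, at 1.05 (0.68 to 1.45).

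Among 13 further genes with the CDH name 4 had enough counts, all low and named after their values were seen. Cdh8 and Cdh20 reached the count filter only through day 10, and Cdh24 only through days 5, 10 and 14. No count of changed genes is therefore given for this list. Cdh20, another type II member of neural crest, had 0, 0, 5, 40 and 3 expected counts. With the 0 of day 0 set at 3 counts it was 9.62-fold higher on day 10, a ratio without the counting error of the 40. Like that of Cdh6, its highest library was day 10. Cdh8 had 0, 0, 3, 11 and 7 counts, Cdh24 had 4, 0, 20, 20 and 12, and Cdh18 had 16, 0, 10, 6 and 5. Of 13 enzymes that mature or shed cadherins 4 were higher and 1 lower on day 10, and 3 and 1 on day 14, near the shares of all genes (28.7% and 22.3%, 24.5% and 19.9%), and against genes of like length 2 were higher on each day. Adam10, the main sheddase of Cdh1 and Cdh2, was at 1.75 (1.56 to 1.95) on day 14, its relative Adam17 at 1.73 (1.41 to 2.08) and Ncstn, a subunit of gamma-secretase, at 1.10 (0.91 to 1.30).

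**Figure D5:**
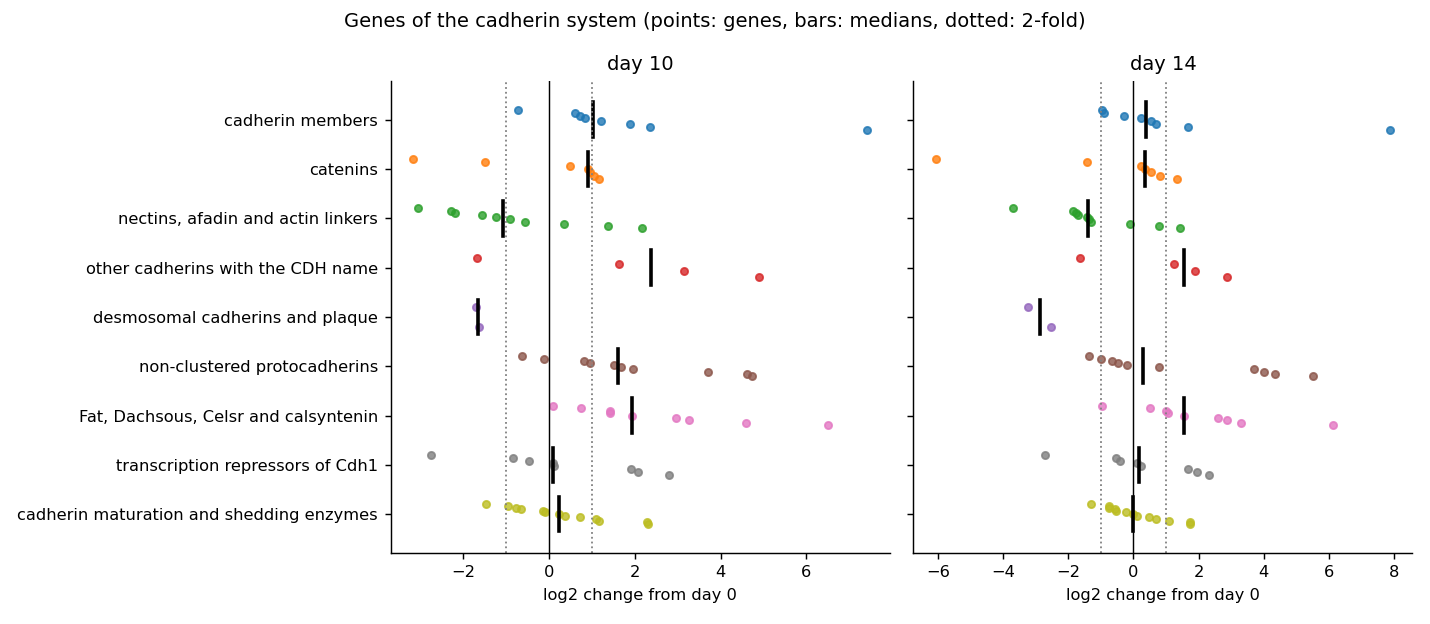
Log2 change against day 0 (horizontal axis) of each tested gene of the cadherins and 8 related lists on day 10 (left) and day 14 (right). Points are genes, black bars are medians and dotted lines mark 2-fold; genes at 0 in a library, such as Ctnnd2 on day 14, are drawn at their value with the pseudocount. The medians of the nectins, afadin and actin linkers are −1.06 and −1.40, and Cdh19 is the rightmost cadherin on both days.

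Genes with the most similar time courses were sought among 8273 genes with 100 or more counts in 1 or more libraries, by the distance between log2 changes over the 4 later days. For Cdh19 these were Cldn11 (distance 0.775), the claudin of myelin and other tight junctions, Adipoq (1.25), a hormone of fat cells, and Plekhb1 (1.42). Cldn11 had normalized counts of 0.990, 1.81, 33.3, 471 and 436. For Cdh11 they were Aqr (0.306), Acvr1 (0.352), a BMP type I receptor, and Gpkow (0.375). For Cdh13 they were Psd3 (0.377), Fnbp1 (0.403) and Pla2g4a (0.405), and for Cdh2 Adamts5 (0.636), Fam13b (0.651) and Sptbn1 (0.656). A distance over 4 values of single libraries is a description of shape only.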

How the data were processed

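RNA sequencing of MEFs was analysed at 5 time points with 1 library each, grouped by the day in the labels. Per the labels, total RNA was taken with Trizol, libraries were made with a TruSeq RNA kit, and the submitters' processing notes name Bowtie, RSEM and mm10, with no versions. The gene annotation is not given in the sources used here. The authors deposited expected counts per gene (RSEM estimates, unscaled), TPM values (divided by length and scaled to one sum per library) and FPKM values. The deposited FPKM values were used for no result. The effective length equals the length in all 27729 rows.

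Gene symbols and coordinates came from GENCODE M21 for 27247 genes, and the rest held 0.359% of all counts. Rounded expected counts were used for the TMM factors of edgeR 4.0.16 (R 4.3.3), which were 0.856, 0.808, 1.11, 1.19 and 1.10, and for the intervals. Normalized counts are expected counts divided by effective library size and scaled to its geometric mean. Log2 changes used a pseudocount of 1, and intervals none. A gene was tested if at least 1 library gave it 10 or more expected counts, and called over 2-fold. Intervals are exact Clopper-Pearson 95% intervals of the ratio of 2 counts. No p-value is given. Depths were 2253748 to 3890334 counts, at which 3 counts are 0.771 to 1.33 per 1000000.

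The members and lists were chosen with earlier results of these data known. Genes named are the 10 members, all catenins, up to 3 genes of each list with the largest absolute change on day 14 among those with 100 or more counts in 1 or more libraries, and the 3 most similar courses of each member at that level. Marker genes, low cadherins and other genes of the lists outside this rule were named after their values were seen. Alternatives were DESeq2 1.42.0 size factors, library totals, TMM without Gm42418 and Lars2, TPM, a pseudocount of 5, centring on 10 groups of gene length, a 4-fold threshold, and no or a stricter count filter. Python 3.11.15 with scipy 1.17.1 was used, and the computation was tested on simulated data.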

Additional observations from a re-analysis of the deposited data

How the results depend on the processing

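No paired analysis was possible because each time point has 1 library, and no replicate could be left out. Each cadherin change stayed within its counting interval with DESeq2 size factors, with TMM without Gm42418 and Lars2 and with a pseudocount of 5 (40 of 40 values each), and with TMM from the 4 libraries without day 2 (30 of 30), an alternative chosen after seeing the data. It left the interval for 13 values with TPM, 9 when centred on genes of like length and 7 with library totals. The 40 values include Cdh1, whose intervals against day 0 had no upper limit, and Cdh5, whose intervals were wide (−1.18 to 8.17 on day 2). Such values had little or no room to leave their intervals. No called change turned its direction.

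The numbers of cadherins over 2-fold depended on scale, threshold and filter. With plain TPM 3 in place of 5 were lower on day 2, 0 in place of 1 on day 5, and 7 in place of 4 were higher on day 10 and 5 in place of 2 on day 14, with medians of 2.21 and 1.17 in place of 1.03 and 0.39. With library totals 0 were lower on day 5 and 7 higher on day 10, with a median of 1.50. These 2 scales also raise the median of all genes on days 5, 10 and 14. With TPM the split of higher and lower genes was 32.0% and 3.98% on day 5, 52.9% and 6.77% on day 10 and 41.6% and 6.96% on day 14, and with library totals 28.6% and 7.55%, 39.3% and 14.5%, and 32.4% and 13.6%. With TPM the median of all genes moved by −0.17, 0.56, 0.95 and 0.72 from day 2 to day 14, and with library totals by −0.08, 0.37, 0.46 and 0.35. Centred on genes of like length, 2 were lower on day 5 (Cdh2 and Cdh3), 1 on day 10 (Cdh3) and 2 on day 14 (Cdh3 and Cdh4), the median was 0.41 on day 10 and −0.11 in place of 0.03 on day 5. At 4-fold 0 were lower on days 2 and 5, and 1, 2 and 1 were higher on days 5, 10 and 14. Without a count filter 1 was higher on day 2 (Cdh5, 1 count on day 0) and 4 on day 5 (with Cdh1 and Cdh5). With 10 or more counts in every library, which leaves Cdh2, Cdh3, Cdh11 and Cdh13, 3 were lower on day 2, and 1, 1 and 0 were higher on days 5, 10 and 14, since this filter removes Cdh19, Cdh6 and Cdh10. Depth limits Cdh1, Cdh4 and Cdh5, and the day 2 values of Cdh6, Cdh10 and Cdh19.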
